A study of Mus musculus with 4 samples.

Results

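The genes described here encode the adenosine receptors and the proteins that break ATP down to adenosine outside the cell and then remove the adenosine. All 10 genes of a fixed list were found by exact symbol among the 25393 genes of the RNA-seq table: the receptors Adora1, Adora2a, Adora2b and Adora3, the cell-surface enzymes Entpd1, Entpd2 and Nt5e, the clearing enzymes Ada and Adk, and the transporter Slc29a1. The libraries were made from untreated primary astrocyte cultures of cortex and hippocampus of C57BL/6 mice, taken at postnatal day 1. There were 2 wild type (WT) libraries and 2 libraries labelled tet1-/- (Tet1 KO), from mice described as constitutive knockouts, a model not restricted to astrocytes. For these libraries the deletion itself rests on the label. Each isolation pooled 2 mice, and the cells grew for about 7 days, were purified by shaking (260 rpm) and were collected 24 h later, per the labels. The study calls its RNA-seq repeats biological but speaks of more per genotype than the libraries analysed here. The labels do not tie replicates to separate cultures, so the p-values measure only the spread between these libraries. How far that spread is technical was not tested. The 2 libraries labelled tet1-/- had 0 and 830 normalized counts (defined below) summed over 4 Y-linked genes, so they did not hold the same mix of animals.

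Astrocytes release ATP, which acts on P2 receptors of the same and neighbouring cells. At the cell surface, Entpd enzymes cut ATP and ADP down to AMP, and Nt5e (CD73) turns AMP into adenosine. Adenosine acts on 4 G protein-coupled receptors, of which Adora1 and Adora3 lower cAMP and Adora2a and Adora2b raise it, and it is taken up through equilibrative transporters such as Slc29a1 (ENT1). Inside the cell Adk phosphorylates adenosine back to AMP and Ada deaminates it to inosine. In the brain Adk is known as an astrocyte enzyme, Entpd1 (CD39) as a microglial and vascular enzyme, and Adora1 as the widespread inhibitory receptor.

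Levels are given as normalized counts (reads of a gene over the size factor of its library) and, where genes are compared with each other, as FPKM, which also divides by gene length and by the reads on genes. The libraries held 18749610 to 22673555 reads on genes. Tet1 had 266 and 121 normalized counts in WT against 173 and 463 in the Tet1 KO libraries, so the targeted gene was not lower there, and the latter are called the KO-labelled libraries. A count per gene cannot separate transcripts with and without the deleted exons. Astrocyte markers had a summed level of 1434 to 1490 FPKM in WT and 380 and 2570 FPKM in the KO-labelled libraries, in the order of replicates 2 and 1. Gfap alone had 687 and 765 FPKM in WT, and 1871 and 117 FPKM in KO-labelled replicates 1 and 2. Not every marker was abundant, and S100b had at most 5.63 FPKM in any library. Microglial markers were lower in 15 of 15 genes tested, 11 of them at an unadjusted p under 0.05 in limma (summed 79.5 to 127 FPKM in WT, 17.0 to 27.2 FPKM in the KO-labelled libraries). Proliferation markers were higher in 10 of 10, all at an unadjusted p under 0.05. Over all genes tested, 9.18% were lower and 4.54% higher at that threshold. In limma 0 of these markers passed an adjusted p under 0.05, while DESeq2 called 10 microglial and 7 proliferation markers, against 6.26% of all genes with an adjusted p. Xist, the RNA of the inactive X chromosome, had 8.54 and 0.92 normalized counts in WT against 2896 and 13367, and 4 Y-linked genes summed to 3765 and 1909 against 0 and 830, so sex and label cannot be told apart in these libraries.

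Of the 10 genes, 3 had groups that did not overlap, and all 3 were lower in the KO-labelled libraries: Entpd2, Adora1 and Slc29a1. Over all 22094 genes tested, 47.9% had groups that did not overlap in either direction and 25.4% were lower in this way. With limma, 2 of the 10 genes (Entpd2 and Adora1) had an unadjusted p under 0.05, both lower, against 13.7% of all genes in either direction (9.18% lower and 4.54% higher). The same 2 genes had an unadjusted p under 0.05 in edgeR and DESeq2, where 12.4% and 12.6% of all genes did. Under quantile normalization 1490 of 2907 such genes in limma were lower, against 2028 of 3032 as reported. With 10 genes, counts of 3 and 2 are no result about the list. None of the 10 reached an adjusted p under 0.05 in limma (0 of 22094 genes did, with 3032 at an unadjusted p under 0.05) or in edgeR (0 genes adjusted and 2733 unadjusted), while DESeq2 called Entpd2 (1 of 10, against 6.26% of genes with an adjusted p in either direction and 4.62% lower). The median log2 fold change of the 10 genes was -0.80, and that of all genes tested was -0.07.

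**Figure D1:**
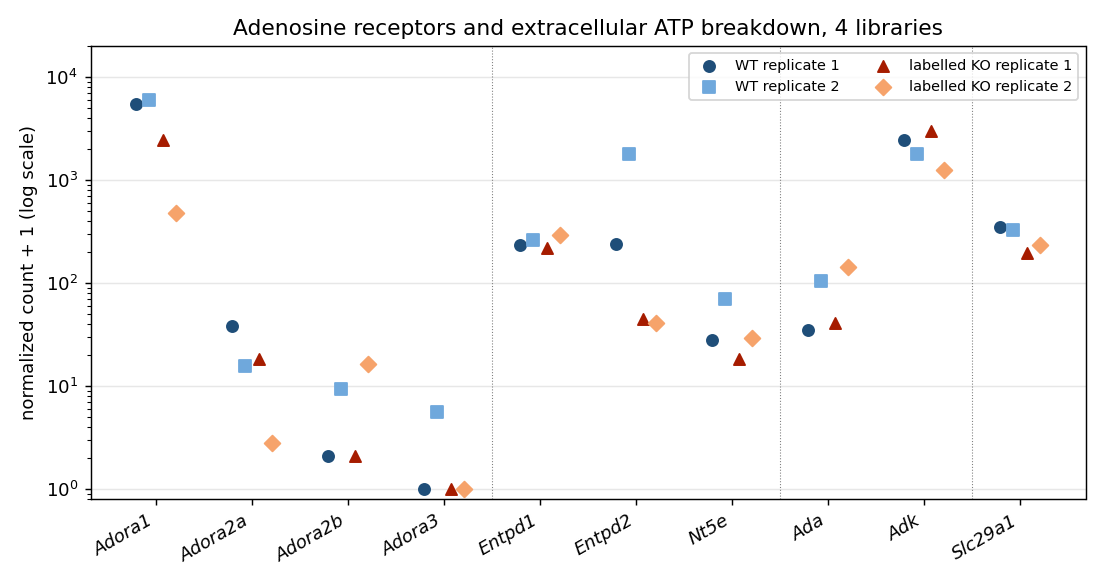
Normalized count plus 1 (log axis) of each of the 10 genes in each of the 4 libraries; 1 point is 1 library, and dotted lines separate receptors, cell-surface enzymes, clearing enzymes and the transporter. The 2 KO-labelled libraries lie below both WT libraries for Adora1, Entpd2 and Slc29a1, and the points of the other 7 genes overlap.

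The stretches just before the start sites of Entpd2, Adora1 and Slc29a1 are printed because these were the genes without overlap, and that of Entpd1 because it encodes the other enzyme that cuts ATP and its groups overlapped. Each is the 250 bases before the RefSeq start (GRCm38.p6, 5′ to 3′ on the strand of the gene, the most upstream start where several are listed). Capitals mark CpG sites, the dinucleotide in which cytosine is methylated and which Tet enzymes act upon; no methylation data were analysed here. They lie at chr2:25395624-25395873 (plus strand, Entpd2), chr1:134235458-134235707 (minus strand, Adora1), chr17:45599619-45599868 (minus strand, Slc29a1) and chr19:40612116-40612365 (plus strand, Entpd1).
Entpd2: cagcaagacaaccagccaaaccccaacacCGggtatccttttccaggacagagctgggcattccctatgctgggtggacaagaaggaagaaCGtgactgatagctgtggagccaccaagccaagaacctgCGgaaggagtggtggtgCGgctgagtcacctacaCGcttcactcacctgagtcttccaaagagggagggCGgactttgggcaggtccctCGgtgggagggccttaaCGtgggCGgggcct
Adora1: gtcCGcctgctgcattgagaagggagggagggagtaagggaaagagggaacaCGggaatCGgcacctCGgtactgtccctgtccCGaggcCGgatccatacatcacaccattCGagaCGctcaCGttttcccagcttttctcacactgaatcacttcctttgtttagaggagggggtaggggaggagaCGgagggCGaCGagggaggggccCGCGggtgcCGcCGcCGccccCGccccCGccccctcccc
Slc29a1: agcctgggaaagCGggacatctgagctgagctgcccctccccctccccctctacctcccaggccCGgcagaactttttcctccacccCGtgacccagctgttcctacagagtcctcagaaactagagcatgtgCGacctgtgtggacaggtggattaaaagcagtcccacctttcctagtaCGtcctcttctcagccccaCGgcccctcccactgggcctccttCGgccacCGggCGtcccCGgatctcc
Entpd1: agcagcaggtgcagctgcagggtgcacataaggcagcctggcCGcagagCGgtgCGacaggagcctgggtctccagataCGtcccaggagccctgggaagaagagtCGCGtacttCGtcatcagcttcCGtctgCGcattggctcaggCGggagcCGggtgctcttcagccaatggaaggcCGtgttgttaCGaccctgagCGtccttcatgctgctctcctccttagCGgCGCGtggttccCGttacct

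Promoters were found for 9 of the 10 genes. The Entpd2 stretch held 9 CpG sites, Adora1 held 19, Slc29a1 held 10 and Entpd1 held 18, against a median of 6 over the 32851 stretches of the same length in the table. Of the 9 genes, 8 lay above that median, and Adora3 had 0 CpG sites. A GC box (GGGCGG on either strand) was found in 6 of the 9, including Entpd2 (2 matches) and Adora1 (3 matches) but neither Slc29a1 nor Entpd1, and 32.7% of all stretches hold it. The cAMP response element TGACGTCA, which reads the same on both strands, was found in 0 of the 9 and in 1.55% of all stretches, and TATAAA on either strand in 0 of the 9 and in 12.4%. Entpd1, with overlapping groups, and Adora1, without overlap, had nearly the same number of CpG sites.

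Adora1 (ENSMUSG00000042429, chromosome 1 of mm10 from 134199223 to 134235431, minus strand), the receptor that inhibits adenylyl cyclase, was the receptor found at the highest level. It had 5451 and 6030 normalized counts in WT replicates 1 and 2 against 2454 and 478 in the KO-labelled libraries. Both KO-labelled libraries were below both WT libraries, and they differed from each other 5.14-fold while the WT libraries differed 1.11-fold. The means were 5740 ± 409 in WT (SD, n = 2) and 1466 ± 1398 in the KO-labelled libraries (SD, n = 2), a ratio of 0.255. On the log2(normalized count + 1) scale the difference was -2.40 (standard error 0.77, 95% interval -4.33 to -0.48, adjusted p = 0.301 from limma; adjusted p = 0.386 from edgeR and 0.106 from DESeq2). The size rests on KO-labelled replicate 2, without which it was -1.22, and without KO-labelled replicate 1 it was -3.58. The unadjusted p of Adora1 was 0.0233 in limma, and it was 0.150 without WT replicate 1 and 0.198 without WT replicate 2. The 3′ end of Adora1 overlaps Mybph on the opposite strand, which had at most 23.5 normalized counts in any library.

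The other 3 receptors were near or under the floor of detection, 3 reads, in at least 1 library each. Adora2a (ENSMUSG00000020178, chromosome 10 from 75316877 to 75334784, plus strand), best known from striatal neurons and vessels, had 37.3 and 14.7 normalized counts in WT against 17.1 and 1.80 in the KO-labelled libraries. Labelled KO replicate 1 lay between the WT libraries, so the groups overlapped. The difference was -1.78 on the log2 scale (standard error 1.12, adjusted p = 0.534 from limma). It was -3.13 without KO-labelled replicate 1 (adjusted p = 0.213 from limma, unadjusted p = 0.0413) and -0.44 without KO-labelled replicate 2, and it was -1.14 without WT replicate 1.

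Adora2b (ENSMUSG00000018500, chromosome 11 from 62248984 to 62266453, plus strand), the low-affinity receptor that raises cAMP, had 1 and 9 reads in WT and 1 and 17 reads in the KO-labelled libraries. Both replicates numbered 1 were under the floor, and both numbered 2 were above it, whatever the label. The log2 difference of 0.41 had a 95% interval of -2.93 to 3.75 (limma, adjusted p = 0.917), and libraries of the same label differed by more than that. Adora3 (ENSMUSG00000000562, chromosome 3 from 105870858 to 105908926, plus strand), a receptor known in rodent brain mainly from microglia, had 0 and 5 reads in WT and 0 in both KO-labelled libraries. A count of 0 allows up to 3.21 and 2.70 normalized counts in those libraries, so a difference was not detectable at this depth. Adora3 overlaps Tmigd3 on the same strand, which had 0 normalized counts in 3 libraries and 2.14 in KO-labelled replicate 1.

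By FPKM, Adora1 made up 98.7% and 99.0% of the summed receptor level in WT and 98.6% and 90.3% in the KO-labelled libraries. Summed receptor levels were 47.7 and 50.5 FPKM in WT and 19.4 and 4.53 FPKM in the KO-labelled libraries. Without Adora1 the other receptors summed to 0.639 and 0.505 FPKM in WT and 0.279 and 0.440 FPKM in the KO-labelled libraries. Adora2b took 9.08% of the receptor level in KO-labelled replicate 2, and at most 0.426% in the other libraries. The log2 ratio of Adora2b to Adora1 overlapped between the labels (-10.67 and -7.86 in WT, -9.51 and -3.31 in the KO-labelled libraries; exact permutation test, two-sided p = 0.667). The smallest two-sided p that 2 against 2 libraries allow is 0.333.

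**Figure D2:**
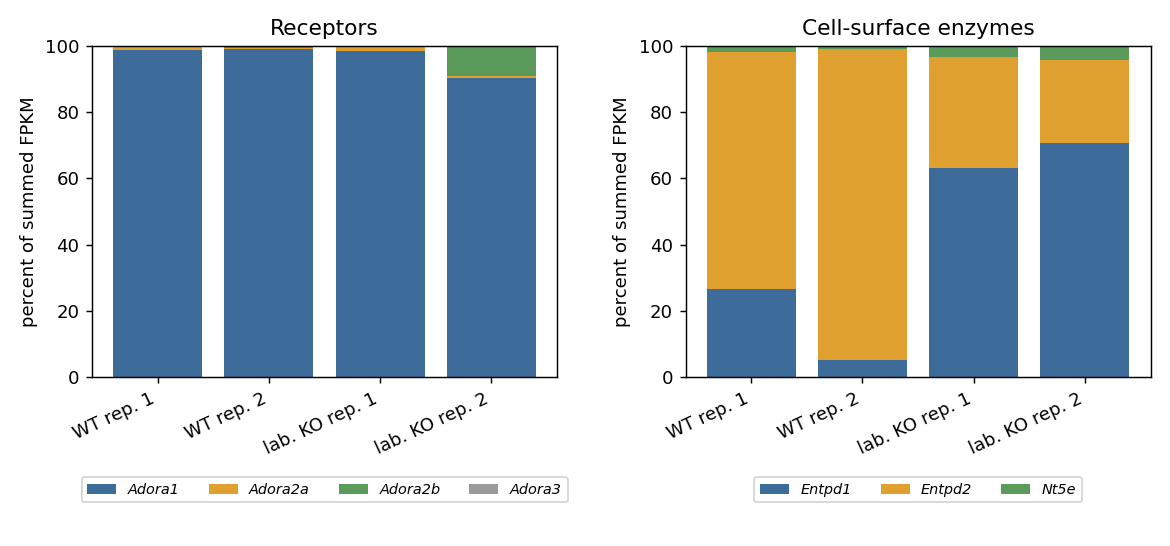
Share of each gene in the summed FPKM of the 4 receptors (left) and of the 3 cell-surface enzymes (right), as percent, in each library; 1 stacked bar is 1 library. Adora1 fills at least 90.3% of the receptor bar in every library, and the larger part of the enzyme bar is Entpd2 in both WT libraries (71.5% and 93.9%) and Entpd1 in both KO-labelled libraries (63.0% and 70.6%).

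Entpd2 (ENSMUSG00000015085, chromosome 2 from 25395874 to 25401321, plus strand), an enzyme that prefers ATP to ADP and so leaves ADP outside the cell, showed the largest difference of the 10 genes. It had 238 and 1803 normalized counts in WT replicates 1 and 2 against 43.9 and 39.7 in the KO-labelled libraries. The KO-labelled libraries were nearly alike and below both WT libraries, which themselves differed 7.58-fold. The means were 1021 ± 1107 in WT (SD, n = 2) and 41.8 ± 2.99 in the KO-labelled libraries (SD, n = 2), or 24.4-fold lower, a ratio that rests largely on WT replicate 2. The log2 difference was -3.94 (standard error 0.96, 95% interval -6.37 to -1.52) with an adjusted p of 0.225 from limma, and it was -2.48 without WT replicate 2. The unadjusted p of 0.00806 in limma was 0.0813 without KO-labelled replicate 1 and 0.0601 without KO-labelled replicate 2. In DESeq2 the difference was -4.61 (adjusted p = 1.35e-05) and in edgeR -4.62 (adjusted p = 0.204). The 3′ part of Entpd2 overlaps Npdc1 on the same strand, which had 3410 to 5349 normalized counts and a log2 difference of -0.19, so that reads in the shared stretch could be assigned to either gene.

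Entpd1 (ENSMUSG00000048120, chromosome 19 from 40612366 to 40741602, plus strand), which takes ATP through to AMP, had 232 and 260 normalized counts in WT against 215 and 293 in the KO-labelled libraries. The WT libraries lay between those labelled KO. Annotated processed pseudogenes (Gm16027 and Gm8783) lie within Entpd1 on the same strand. The log2 difference of 0.03 had a 95% interval of -0.90 to 0.97 (limma, adjusted p = 0.981). Nt5e (ENSMUSG00000032420, chromosome 9 from 88327197 to 88372092, plus strand), which makes adenosine from AMP, was low in all libraries, at 26.7 and 69.0 normalized counts in WT against 17.1 and 27.9 in the KO-labelled libraries. The groups overlapped, since KO-labelled replicate 2 was just above WT replicate 1, and the log2 difference was -0.94 (standard error 0.73, adjusted p = 0.608 from limma). It was -1.61 without WT replicate 1, -0.27 without WT replicate 2 and -0.60 without KO-labelled replicate 1.

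Per length, Entpd2 was above Entpd1 in both WT libraries, 2.69-fold and 18.2-fold, and below it in both KO-labelled libraries, at ratios of 0.535 and 0.355. The order of the 2 ATP-cutting enzymes was thus opposite under the 2 labels, in 4 of 4 libraries. The log2 ratio, which does not depend on scaling between libraries, was 2.81 ± 1.95 in WT and -1.20 ± 0.42 in the KO-labelled libraries (SD, n = 2 each), a difference of -4.01 (exact permutation test, two-sided p = 0.333, the smallest possible). Nt5e, the enzyme of the last step to adenosine, made up 0.889% to 4.37% of the summed level of the 3 enzymes.

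Ada and Adk, the enzymes that clear adenosine inside the cell, had overlapping groups. Adk (ENSMUSG00000039197, chromosome 14 from 21052574 to 21448569, plus strand) had 2444 and 1780 normalized counts in WT against 2991 and 1237 in the KO-labelled libraries, a log2 difference of -0.12 (95% interval -1.35 to 1.12, adjusted p = 0.938 from limma). Ada (ENSMUSG00000017697, chromosome 2 from 163726584 to 163750239, minus strand) had 34.1 and 103 normalized counts in WT against 39.6 and 141 in the KO-labelled libraries, a log2 difference of 0.33 (95% interval -1.85 to 2.50, adjusted p = 0.895 from limma). For both genes the libraries split by replicate number and not by label: Adk was higher, and Ada lower, in the replicates numbered 1. The FPKM of Adk was 16.8 and 4.06 times that of Ada in WT, and 17.7 and 2.07 times in the KO-labelled libraries, so Adk was above Ada in every library.

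Slc29a1 (ENSMUSG00000023942, chromosome 17 from 45585200 to 45599606, minus strand), the equilibrative transporter, had 350 and 323 normalized counts in WT against 195 and 233 in the KO-labelled libraries. The groups did not overlap and the replicates lay close together, at 336 ± 19.2 in WT and 214 ± 27.3 in the KO-labelled libraries (SD, n = 2 each), a ratio of 0.637. The log2 difference was -0.65 (standard error 0.35, 95% interval -1.53 to 0.22, adjusted p = 0.468 from limma), and its unadjusted p of 0.114 from limma did not pass 0.05. The antisense gene Gm17080 inside it had at most 2.13 normalized counts.

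**Figure D3:**
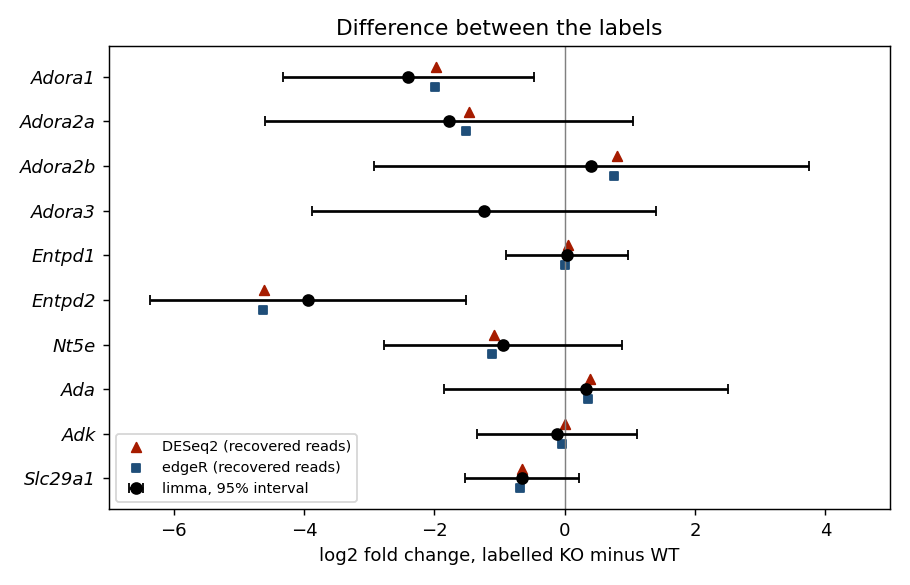
Log2 fold change of each gene, labelled KO minus WT; black points with bars are limma estimates with their 95% intervals, triangles DESeq2 and squares edgeR on the recovered reads (not drawn for Adora3, which had 0 reads in 3 libraries). The interval excludes 0 for Adora1 and Entpd2, with unadjusted p-values, and includes 0 for the other 8 genes.

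Across all 4 libraries the order of levels by mean FPKM was Adora1 (30.1), Entpd2 (12.02), Adk (11.8), Slc29a1 (3.33), Entpd1 (2.16), Ada (1.92), Adora2a (0.280), Nt5e (0.198), Adora2b (0.170) and Adora3 (0.0148). The ranges over libraries overlapped between neighbours except between Adk and Slc29a1 and between Ada and Adora2a. Entpd2 was second in WT, with 23.1 FPKM, and sixth in the KO-labelled libraries, with 0.927 FPKM. Adora1 was first under both labels (48.5 ± 2.04 FPKM in WT, 11.6 ± 10.6 FPKM in the KO-labelled libraries; SD, n = 2 each), but in KO-labelled replicate 2 it was below Adk, at 4.09 against 7.18 FPKM.

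The lists of marker genes bear on Adora1 and Entpd2, because bulk RNA cannot tell fewer cells of a type from less RNA per cell. Among the marker and pathway genes, the profile over the 4 libraries most like that of Entpd2 was that of Cx3cr1, the microglial fractalkine receptor, with a root mean square difference of 0.58 on the log2 scale, and the next was Aif1, also microglial (0.63; this second name was added after the values were seen). Cx3cr1 had 112 and 349 normalized counts in WT against 23.5 and 11.7 in the KO-labelled libraries, so it shared both the higher WT replicate 2 and the low level under the other label. P2ry12 and Tmem119 were sparse, at 6.40 and 4.598 against 0 and 0.901, and at 2.13 and 38.6 against 8.56 and 1.80 normalized counts. Other microglial genes had more counts. C1qa had 268 and 442 against 33.2 and 5.41, and Csf1r had 175 and 478 against 35.3 and 44.2. Of the 15 microglial markers tested, 14 were lower without overlap and 0 higher, against 25.4% and 22.5% of all genes tested. Set against the mean log2 FPKM of the 14 microglial markers with reads in every library, the log2 level of Entpd2 was 1.49 and 3.16 in WT and 1.49 and 1.65 in the KO-labelled libraries, and the groups overlapped. The same measure for Entpd1 was 0.06 and -1.02 in WT and 2.40 and 3.15 in the KO-labelled libraries, without overlap. Against the mean log2 FPKM of the 9 astrocyte markers, Entpd2 was at -3.70 and -0.53 in WT and -6.26 and -4.41 in the KO-labelled libraries. On that measure it was lower without overlap, with a difference of -3.22 between the means.

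For Adora1 the most similar profile was that of Panx2, a large-pore channel gene of the pannexin family (0.34), followed by Slc1a2, the astrocyte glutamate transporter GLT-1 (0.41; named after the values were seen). Slc1a2 had 11394 and 5793 normalized counts in WT against 3078 and 597 in the KO-labelled libraries. Of the 9 astrocyte markers, 5 were lower without overlap and 1 (Gja1) was higher, against 25.4% and 22.5% of all genes tested. Their median log2 difference was -0.68, and it was -1.65 without KO-labelled replicate 1 and -0.26 without KO-labelled replicate 2. Set against the mean log2 FPKM of the 9 markers, Adora1 was at -0.63 and -0.23 in WT and at -1.90 and -2.26 in the KO-labelled libraries, so it was still lower without overlap, with a difference of -1.65 between the means. Slc29a1 on that measure was at -4.06 and -3.92 in WT and -5.02 and -2.76 in the KO-labelled libraries, and the groups overlapped. These measures against marker genes were chosen after the values were seen, and the part of cell composition in either result was not tested.

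**Figure D4:**
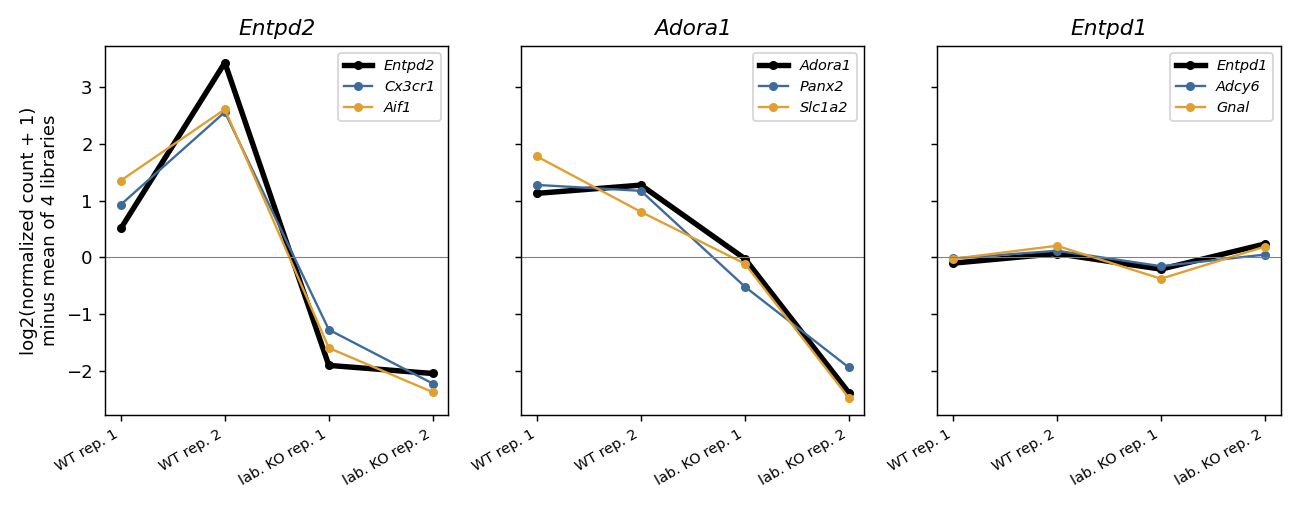
Log2(normalized count + 1) minus its mean over the 4 libraries for Entpd2, Adora1 and Entpd1 (black) and the 2 listed genes with the most similar profile (colours); lines only join the values of a gene and carry no order. Entpd2 and the microglial genes Cx3cr1 and Aif1 peak together in WT replicate 2, Adora1, Panx2 and Slc1a2 are all lowest in KO-labelled replicate 2, and Entpd1 is nearly flat.

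Of the remaining members, Adk was closest to Gnao1, a G protein subunit abundant in neural cells (0.06), Slc29a1 to its lysosomal relative Slc29a3 (0.15) and Entpd1 to the adenylyl cyclase Adcy6 (0.11). Nt5e was closest to Pdgfra (0.30), a marker of oligodendrocyte precursors and fibroblasts, Adora2a to Slc1a2 (0.43) and Ada to the ATP-gated channel gene P2rx7 (0.48). With 4 libraries such likeness is a description.

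Around these 10 genes, 79 further genes of ATP and adenosine handling could be tested of 93 listed. In limma, 12 were lower and 5 higher at an unadjusted p under 0.05, against 9.18% and 4.54% of all genes tested, and 0 passed an adjusted p under 0.05. Without overlap, 23 were lower and 16 higher, against 25.4% and 22.5% of all genes tested. These shares also stand beside each list count below. The median log2 difference of the 79 genes was -0.10.

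Among the genes of ATP release, 5 of 7 were lower without overlap and 1 was higher, against 25.4% and 22.5% of all genes tested. The median log2 difference was -1.56. That is the value of Slc17a9, with 4.27 and 5.52 normalized counts in WT against 1.07 and 0.90 in the KO-labelled libraries. The median was -2.19 with a pseudocount of 0.1 and -2.30 with DESeq2. The higher gene was Gja1, also in the astrocyte list, with 3557 and 5231 normalized counts in WT against 7361 and 6344 in the KO-labelled libraries. Summed over the 7 genes, the counts were 4600 and 6441 in WT against 7873 and 7211, so the sum was higher and not lower. Calhm2, a large-pore channel subunit, had 67.2 and 112 normalized counts in WT against 3.21 and 5.41 in the KO-labelled libraries (log2 difference -4.08, standard error 0.68, adjusted p = 0.147 from limma and 5.82e-05 from DESeq2). Panx2 had 510 and 474 against 147 and 54.1 normalized counts (-2.45, adjusted p = 0.209 from limma and 0.00759 from DESeq2). The connexin gene Gjb6 had 64.0 and 33.1 against 11.8 and 0 (-3.72, adjusted p = 0.340 from limma). These 3 genes were each below both WT libraries in both KO-labelled libraries.

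Of the P2 receptor genes, listed as ATP receptors, 4 of 11 tested were lower without overlap and 0 were higher. The shares of all genes tested were 25.4% and 22.5%, and with 11 genes such counts are no result about the list. The median log2 difference was -0.29, and it turned to 0.47 without KO-labelled replicate 1. P2ry6, the UDP receptor, had 111 and 207 normalized counts in WT against 18.2 and 82.0 in the KO-labelled libraries, P2rx6 had 369 and 400 against 206 and 80.2, and P2rx4 had 435 and 497 against 311 and 283. Their log2 differences were -1.93, -1.57 and -0.65, with adjusted p from 0.321 to 0.446 in limma. P2ry12 was the fourth, with 6 and 5 reads in WT against 0 and 1, and it also stands in the microglial list. The other genes tested overlapped. Among them, P2ry2 had 897 and 994 normalized counts in WT against 664 and 1971, and P2rx7 had 276 and 415 against 162 and 470.

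Among the other cell-surface enzymes the median log2 difference was 0.58, and -0.27 without KO-labelled replicate 2. Enpp2 (autotaxin), which hydrolyses nucleotides but chiefly makes lysophosphatidic acid, had 23.5 and 20.2 normalized counts in WT against 182 and 102 in the KO-labelled libraries, a log2 difference of 2.59 (standard error 0.56, adjusted p = 0.195 from limma and 0.00208 from DESeq2). Enpp1, which cuts ATP to AMP and pyrophosphate, had 11.7 and 19.3 against 34.3 and 38.8 normalized counts (1.22, adjusted p = 0.459 from limma). Both genes were higher without overlap, and of the 6 tested genes of the list 1, Entpd3, was lower without overlap. The shares of all genes tested were 22.5% higher and 25.4% lower, and with 6 genes such counts are no result about the list. The intracellular enzymes Entpd7 (77.9 and 91.0 against 156 and 298 normalized counts) and Entpd6 (430 and 520 against 599 and 675) were also higher, with log2 differences of 1.35 and 0.43. Slc29a3 was lower, at 835 and 840 against 618 and 671 normalized counts (-0.38, adjusted p = 0.601 from limma).

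Inside the cell, 6 of 23 genes of adenosine and AMP metabolism were lower and 5 higher without overlap, with a median log2 difference of -0.02. Those counts are close to the shares over all genes tested (25.4% lower and 22.5% higher), so they are no result about the list. Nt5c1a, a cytosolic enzyme that makes adenosine from AMP, had 49.1 and 78.2 normalized counts in WT against 19.3 and 0 in the KO-labelled libraries (-3.81, adjusted p = 0.359 from limma). Xdh, an enzyme of purine breakdown, had 54.4 and 191 against 4.28 and 22.5 normalized counts (-3.21, adjusted p = 0.300 from limma and 0.0282 from DESeq2). Pnp2, a purine nucleoside phosphorylase, had 33.1 and 25.7 against 19.3 and 4.51 (-1.51, adjusted p = 0.492 from limma). Each of these 3 was lower in both KO-labelled libraries than in both WT libraries.

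Downstream of the receptors, Gnai1, an inhibitory G protein subunit through which Adora1 can act, had 186 and 156 normalized counts in WT against 1091 and 1797 in the KO-labelled libraries. Gnai1 was higher in both, by 3.03 on the log2 scale (standard error 0.38, adjusted p = 0.102 from limma and 9.61e-08 from DESeq2), while Adora1 was lower in the same libraries. Other inhibitory subunits had more counts. Gnai2 had 24954 and 31049 in WT against 31701 and 14781, and Gnao1 had 14480 and 11541 against 17446 and 7746, both with overlapping groups. Gnai3 had 2616 and 2624 against 2630 and 3883, without overlap. Among adenylyl cyclases, Adcy1 had 682 and 563 against 2490 and 1529 normalized counts (1.65, adjusted p = 0.195 from limma and 0.0120 from DESeq2). Adcy7 had 88.6 and 148 against 36.4 and 36.1 (-1.63, adjusted p = 0.305 from limma). Of the 15 genes of the list tested, 4 were lower and 3 higher without overlap, again close to the shares over all genes (25.4% and 22.5%). Among 9 cAMP-responsive genes, 1 was lower and 3 were higher without overlap, against the same shares over all genes, with a median of 0.01. Nr4a1, an immediate early gene, had 68.3 and 105 against 222 and 333 normalized counts (1.67, adjusted p = 0.256 from limma and 0.0463 from DESeq2). Nr4a3 had 87.5 and 106 against 411 and 114 (1.16), and Per1 had 986 and 893 against 796 and 542 (-0.51).

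**Figure D5:**
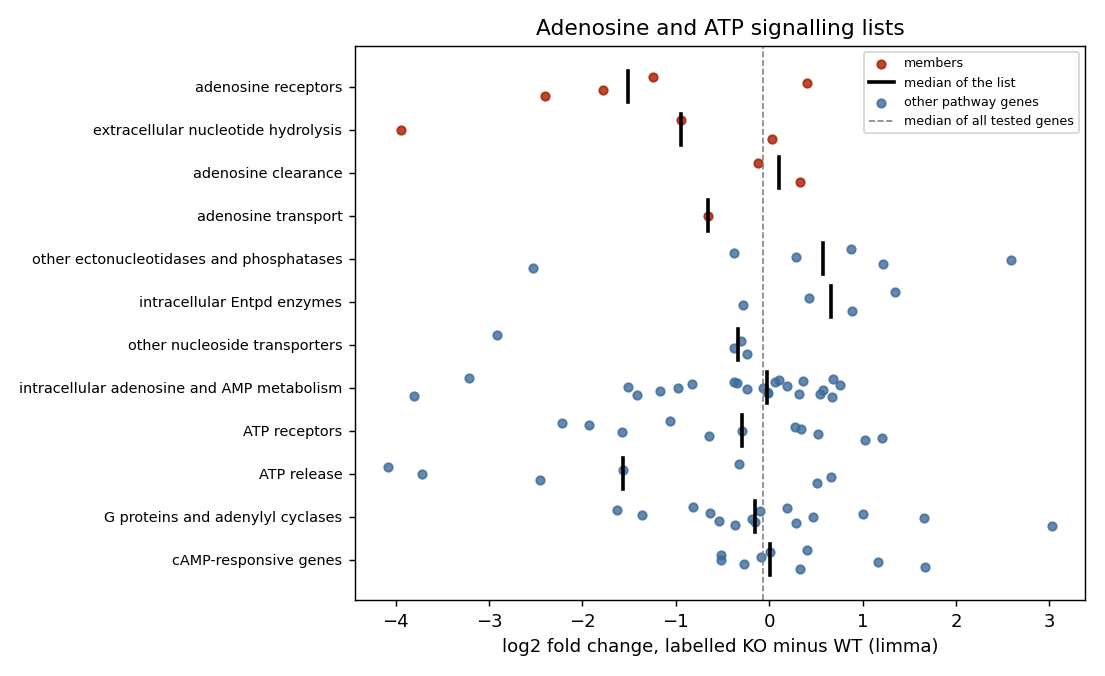
Log2 fold change (limma, labelled KO minus WT) of every tested gene of the lists around adenosine and ATP signalling; 1 point is 1 gene, red for the 10 genes of the main list and blue for the others, and black bars mark list medians. The medians run from -1.56 for ATP release and -1.51 for the receptors to 0.66 for the intracellular Entpd enzymes, and the dashed line at -0.07 is the median of all genes tested. The ATP release median is the value of Slc17a9, with at most 5.52 normalized counts in any library. The receptor median lies between Adora2a and Adora3, both near or under the floor in at least 1 library.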

How the data were processed

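RNA was sequenced by the authors as paired-end Illumina reads, filtered and aligned to mm10; the aligner, the counting program and the annotation are not given in the sources used here. The deposited table is named for FPKM, but its per-library values are a signal of another kind: the authors divided read counts by 1 size factor per library, with no gene length entering. All values (100%) were multiples of what 1 read is worth, within 0.01 reads (0.901 to 1.07 normalized counts), so whole reads were recovered for 25393 genes. The authors' deposited genotype means, log2 fold changes, p-values and adjusted p-values were not used.

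Genotypes were compared with limma 3.58.1 in R 4.3.3 (eBayes with a trend) on log2(normalized count + 1), which understates the change of low genes, over the 22094 genes whose mean reached 1 (Benjamini-Hochberg adjustment). The planned log-scale test was kept, and the recovered reads of the same genes were tested with edgeR 4.0.16 and DESeq2 1.42.0 (DESeq2 called 1088, edgeR 0 and limma 0). FPKM used the lengths in the table. Within-library ratios were compared with exact permutation tests (scipy 1.17.1). Gene positions matched GENCODE M21 for all 10 genes. The fits were tested on simulated counts.

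The 10 genes and all lists were chosen with earlier results of these data known. Named genes were the 10, Tet1, Xist, the Y-linked genes, the first 3 markers of a list where they bear on a result, from each pathway list up to 3 genes with a mean of at least 10, no overlap and the largest differences, and for each member the most similar profile. Gja1, Gnai2, Gnai3, Gnao1, Slc17a9, C1qa, Csf1r, P2ry2, P2rx7 and S100b were also named after the values were seen. Intervals and floors cover counting error or the spread of these libraries only. Replicate libraries of a label differed by more than sampling noise (median chi-square per gene 8.04 in WT and 27.1 in those labelled KO, against 0.455). Alternatives were a pseudocount of 0.1, a mean minimum of 5 or none, 3 other scalings, eBayes without a trend, a replicate block and leaving out each library.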

Additional observations from a re-analysis of the deposited data

How the results depend on the processing

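With 2 libraries per label, the limits lie in the spread between libraries and, for Adora2b and Adora3, in depth. Entpd2, Adora1, Adora2a, Nt5e and Slc29a1 kept their direction under all 14 alternatives, and Adora3 under the 12 that could be fitted. Entpd1 turned to -0.018 with equal sums, and Adk to 0.00101 with DESeq2. DESeq2 called 1088 genes and 1 of the 10 (Entpd2, -4.61), where limma called 0. Without a trend 1 of the 10 had an unadjusted p under 0.05, Adora1 being lost. Leaving out single libraries, the genes at an unadjusted p under 0.05 numbered 1029 (without WT replicate 1), 1386 (without WT replicate 2) and up to 4925 (without KO-labelled replicate 1), and the members 1 to 2. The lone library of a label is then assumed to vary like the others. Left-out values ran from -1.08 to 1.90 for Adora2b, -0.19 to 0.25 for Entpd1, -0.57 to 1.23 for Ada and -0.75 to 0.52 for Adk. They ran from -3.13 to -0.44 for Adora2a, -1.61 to -0.27 for Nt5e, -5.40 to -2.48 for Entpd2, -3.58 to -1.22 for Adora1 and -0.78 to -0.52 for Slc29a1.

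The replicate numbers are not described as a pairing, and deviations of same-numbered libraries had a correlation of -0.08 over 22094 genes. With the replicate block, 2583 genes had an unadjusted p under 0.05 against 3032 without it, 0 passed an adjusted p under 0.05, and Entpd2 and Adora1 had adjusted p of 0.202 and 0.271 (limma). The count of genes without overlap was not computed with a library left out or in the count tests. Over these alternatives the adjusted p ran from 1.35e-05 to 0.967 for Entpd2 and from 0.106 to 0.967 for Adora1. Quantile normalization moved the median of all genes from -0.07 to 0.08. The causes of these shifts were not tested.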
